A study of Mus musculus with 16 samples.

Results

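The genes described are 6 markers of mouse plasmacytoid dendritic cells: Siglech, Ccr9, Cox6a2, Runx2, Cd7 and Bst2. They were taken by name and found on the array by matching the RefSeq accession or the symbol of each probe. The 6 genes had 9 probes of the 41174 on the array, and 7 of the 9 were bright enough to test, so that each gene was among the 22276 genes and transcripts tested. Expression was measured in 2 early B-lineage fractions of BALB/c mice, fraction B/C (Fr.B/C, the pro-B stage of the Hardy scheme) and fraction A (Fr.A, the pre-pro-B stage that comes before it). Both fractions were sorted from fetal liver (FL) at day 16 of gestation and from adult bone marrow (BM). The series title calls the tissue wild type, the labels name no treatment, and the sort gates are not given in the sources used here. Each of the 4 fetal liver sorts used the embryos of 1 pregnant mouse, on average 8 embryos, and each of the 4 bone marrow sorts pooled the femurs and tibias of 16 female mice, so that 1 array stands for a pool of animals. Each sort gave 1 sample of either fraction, which makes 4 groups of 4 arrays and 16 arrays in all. The RNA of a sample was amplified and hybridised in one dye against a common reference in the other dye, total RNA from P388d, DN3, EL4, J558, RS2 and R1 cells, 6 lines mixed. Levels are therefore log2 ratios of sample over reference, and a level of one gene cannot be set against that of another.

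Plasmacytoid dendritic cells are bone-marrow-derived cells that sense viral nucleic acids through endosomal Toll-like receptors and release large amounts of type I interferon. In the mouse they carry B220, as early B-lineage cells do, and their development depends on the E protein Tcf4, while Id2 opposes E proteins and favours conventional dendritic cells. Siglech encodes a sialic-acid-binding surface receptor that signals through the adaptor DAP12 (Tyrobp), Ccr9 the receptor for the chemokine Ccl25, Cd7 an immunoglobulin-superfamily surface protein also carried by T and NK cells, and Bst2 tetherin, an interferon-inducible surface protein that holds budding virus particles at the membrane. Runx2 encodes a transcription factor of the Runt family best known from bone and required for plasmacytoid dendritic cells to leave the marrow. Cox6a2 encodes the heart and muscle form of a subunit of mitochondrial cytochrome c oxidase.

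The promoters of 4 of the 6 genes were found in the RefSeq table (build GRCm38.p6), each 250 bases before and 50 bases after the gene's start. None was found for Cox6a2 and Cd7, and all 6 genes had lower ratios in Fr.B/C than in Fr.A in both tissues. Capitals mark matches on either strand to CANNTG (the E-box that E proteins bind), TGTGGT (the RUNX core), the interferon-stimulated response element (2 GAAA blocks a pair of bases apart) and GAGGAA (the core of PU.1 and Spi-B sites).
Siglech (chr7:55767934-55768233, plus strand): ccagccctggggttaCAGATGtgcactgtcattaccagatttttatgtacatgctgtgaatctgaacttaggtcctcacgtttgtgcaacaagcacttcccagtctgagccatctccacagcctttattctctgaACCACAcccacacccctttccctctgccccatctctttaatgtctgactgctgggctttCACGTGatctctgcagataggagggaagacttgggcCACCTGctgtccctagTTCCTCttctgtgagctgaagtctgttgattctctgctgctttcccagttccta
Ccr9 (chr9:123766961-123767260, plus strand): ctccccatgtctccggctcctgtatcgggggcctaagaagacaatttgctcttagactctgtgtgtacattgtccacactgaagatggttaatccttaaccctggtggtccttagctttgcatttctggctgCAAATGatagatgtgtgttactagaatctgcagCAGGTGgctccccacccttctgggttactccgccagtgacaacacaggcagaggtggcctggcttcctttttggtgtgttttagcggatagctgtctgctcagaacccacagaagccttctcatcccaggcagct
Runx2 (chr17:44814578-44814877, minus strand): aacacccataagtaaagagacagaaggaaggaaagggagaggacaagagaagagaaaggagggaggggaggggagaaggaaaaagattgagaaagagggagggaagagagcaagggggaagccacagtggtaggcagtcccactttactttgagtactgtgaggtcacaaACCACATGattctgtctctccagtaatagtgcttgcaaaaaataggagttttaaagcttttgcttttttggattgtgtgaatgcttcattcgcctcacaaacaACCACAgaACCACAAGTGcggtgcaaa
Bst2 (chr8:71537423-71537722, minus strand): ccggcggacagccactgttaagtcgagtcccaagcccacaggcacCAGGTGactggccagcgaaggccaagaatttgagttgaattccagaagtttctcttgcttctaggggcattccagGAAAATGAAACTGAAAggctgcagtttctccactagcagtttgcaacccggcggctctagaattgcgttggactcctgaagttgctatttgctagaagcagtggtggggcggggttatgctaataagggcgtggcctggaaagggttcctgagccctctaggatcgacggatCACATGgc
Counted from the gene's first base as +1, the Siglech promoter held 3 E-boxes, 1 RUNX core at -115 to -110 and 1 PU.1 and Spi-B core at -4 to 2. The Runx2 promoter held 3 RUNX cores, the first of which, at -80 to -75, overlapped an E-box, and 2 E-boxes. The Bst2 promoter held 2 interferon-stimulated response elements that overlapped each other, at -130 to -121 and at -124 to -115, and 2 E-boxes. The Ccr9 promoter held 2 E-boxes and none of the other 3 motifs. Of 32817 promoters of this length, 72.3% held an E-box, 16.8% a RUNX core, 3.43% an interferon-stimulated response element and 28.3% a PU.1 and Spi-B core. These are matches of letters only and say nothing of binding.

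Median sample signals of the arrays ran from 71.2 to 162 (intensity), and 52.9% to 68.3% of probes were well above background. The labelled cell type was checked with 12 early B-lineage genes, 10 of which were measured. Of these, 6 were higher and 2 lower in Fr.B/C than in Fr.A in fetal liver, and 6 were higher and 1 lower in bone marrow. Of everything tested, 22.7% passed in either direction in fetal liver and 32.2% in bone marrow. Igll1 and Pax5 had no probe that passed the brightness filter.

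All 6 marker genes were lower in Fr.B/C than in Fr.A, in fetal liver and in bone marrow, and in neither tissue did the 4 Fr.B/C arrays overlap the 4 Fr.A arrays for any of them. The limma test, adjusted over all genes and transcripts, passed for all 6 in both tissues. Siglech met the brightness filter only through its Fr.A arrays, so its call had little room to go the other way. The 6 genes were also chosen with earlier results of these data known, so their count is a description only. Of everything tested, 22.7% passed in fetal liver in either direction and 12.7% in the lower direction, against 32.2% and 18.7% in bone marrow, and 8.72% were lower in both. Groups lay apart in the lower direction for 13.5% of genes in fetal liver and 17% in bone marrow. The median log2 difference of the 6 genes was -2.24 in fetal liver and -2.52 in bone marrow, beside 0.00102 and -0.0377 over all genes tested. In bulk samples of this kind, fewer cells of a type and less RNA per cell cannot be told apart.

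**Figure D1:**
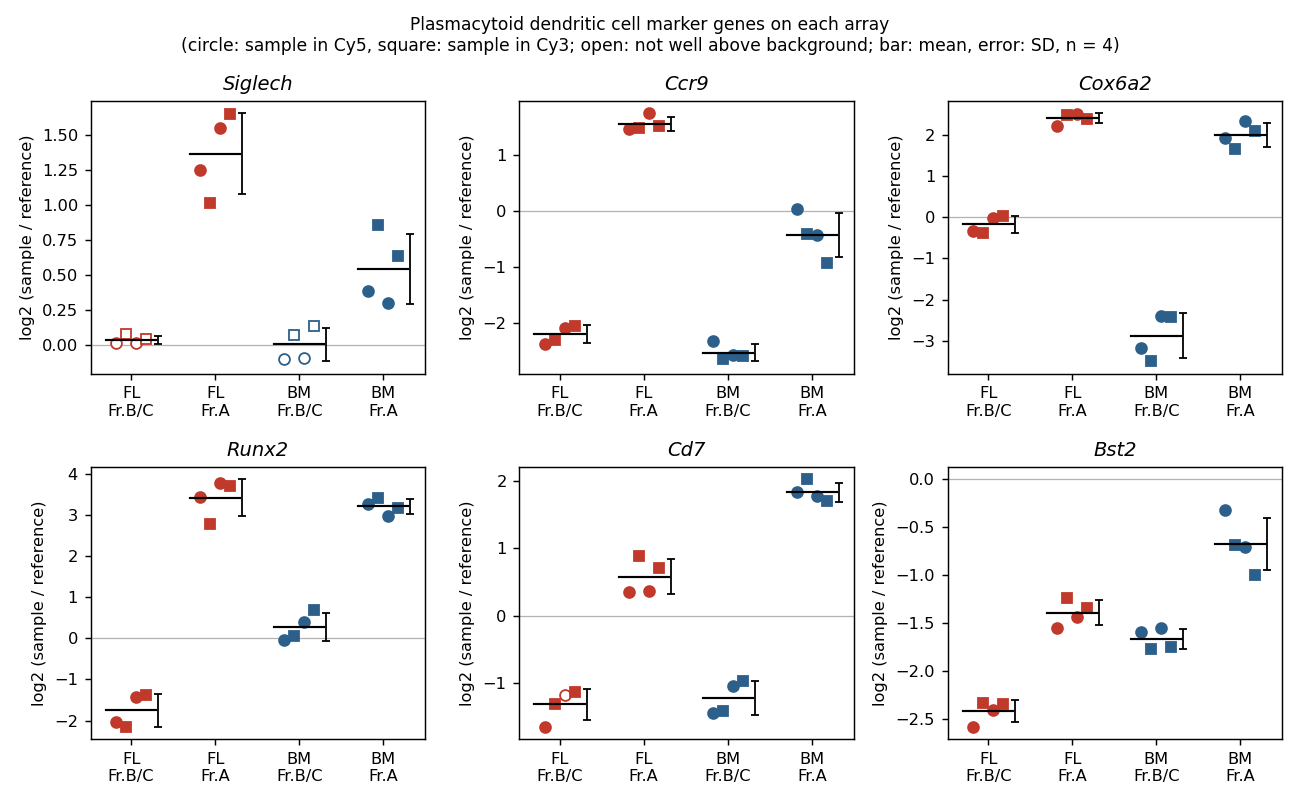
Log2 ratio of sample over reference on each of the 16 arrays for the 6 genes, with groups on the horizontal axis (fetal liver Fr.B/C, fetal liver Fr.A, bone marrow Fr.B/C, bone marrow Fr.A; circles Cy5, squares Cy3, open symbols not well above background, bars the mean and its SD over 4 arrays). The Fr.B/C arrays lie below the Fr.A arrays of the same tissue in every panel, and the Siglech symbols of Fr.B/C are all open.

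Siglech was above background in Fr.A only. Its log2 ratios in fetal liver were 0.02, 0.08, 0.02 and 0.04 on the 4 Fr.B/C arrays, against 1.25, 1.02, 1.55 and 1.65 on the Fr.A arrays. In bone marrow they were -0.10, 0.08, -0.09 and 0.14 in Fr.B/C, against 0.39, 0.86, 0.30 and 0.63 in Fr.A. The probe was not well above background on any of the 8 Fr.B/C arrays, so only a bound can be given there. Siglech was at least 2.17-fold lower in Fr.B/C than in Fr.A in fetal liver (adjusted p = 1.50e-06) and at least 1.40-fold lower in bone marrow (adjusted p = 0.00432). The bone marrow call was lost on the Cy5 arrays alone (adjusted p = 0.0846), on the Cy3 arrays alone (adjusted p = 0.0929) and with arrays 1 and 2, and 3 and 4, averaged (adjusted p = 0.0704). In Fr.A, every fetal liver array lay above every bone marrow array, and the difference was 0.82 ± 0.13 (SE, adjusted p = 0.000174), which on the Cy3 arrays alone was 0.588 with an adjusted p of 0.126. With an offset of 16 in place of 50 in the background correction this difference was 1.27, and in the authors' deposited table it is 1.40. The Fr.A signals are themselves low after background subtraction, from 55.5 to 139 (intensity) in fetal liver and from 35.5 to 71.8 in bone marrow. The 2nd bone marrow Fr.B/C array, not well above background, read 69.4. The size of the Fr.A difference is therefore uncertain. Tyrobp, which encodes the adaptor of Siglech, was also lower in Fr.B/C, by -2.82 ± 0.21 in fetal liver and -2.21 ± 0.21 in bone marrow (log2 difference, SE). Hcst, a related adaptor, differed by -0.12 in fetal liver (adjusted p = 0.647), and it fell by 0.86 in bone marrow.

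Ccr9 had the widest fetal to adult gap of the 6 genes in Fr.A. In fetal liver its ratios were -2.37, -2.29, -2.08 and -2.05 in Fr.B/C, against 1.47, 1.47, 1.74 and 1.51 in Fr.A. In bone marrow they were -2.31, -2.65, -2.57 and -2.58 in Fr.B/C, against 0.03, -0.40, -0.43 and -0.92 in Fr.A. All fetal liver Fr.A arrays were thus above all bone marrow Fr.A arrays, while the Fr.B/C arrays of both tissues overlapped. In Fr.A the gene was 3.95-fold higher in fetal liver than in bone marrow (log2 difference 1.98 ± 0.14 SE, adjusted p = 6.79e-08). In Fr.B/C the difference was 0.33 ± 0.14 (adjusted p = 0.101), and it passed with the deposited ratios (0.607, adjusted p = 0.0396). Leaving out 1 array also brought it past the threshold in 2 cases, the 4th bone marrow Fr.A array (adjusted p = 0.0497) and the 1st fetal liver Fr.B/C array (0.425, adjusted p = 0.0479). Fr.B/C was lower than Fr.A by -3.75 ± 0.14 in fetal liver (adjusted p = 7.42e-11) and by -2.10 ± 0.14 in bone marrow (adjusted p = 2.38e-08). The Fr.B/C signals are low in both tissues, from 27.1 to 97.6 (intensity) after background subtraction. In the authors' deposited table the differences between fractions are -4.63 in fetal liver and -3.10 in bone marrow. Ccl25, the ligand of Ccr9, was higher in fetal liver than in bone marrow in Fr.A (0.63 ± 0.12, adjusted p = 0.000609), and it was higher in Fr.B/C than in Fr.A in bone marrow (0.81 ± 0.12, adjusted p = 5.27e-05). A second Ccl25 probe gave 0.17 and 0.44 in these comparisons.

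Cd7, unlike Siglech and Ccr9, was lower in fetal liver than in bone marrow in Fr.A. Its ratios in fetal liver were -1.66, -1.31, -1.19 and -1.14 in Fr.B/C, against 0.35, 0.88, 0.37 and 0.70 in Fr.A. In bone marrow they were -1.46, -1.43, -1.04 and -0.98 in Fr.B/C, against 1.84, 2.04, 1.78 and 1.70 in Fr.A. The lowest bone marrow Fr.A array lay above the highest fetal liver Fr.A array, and the Fr.B/C arrays of both tissues overlapped. Fetal liver was lower than bone marrow by -1.26 ± 0.14 in Fr.A (adjusted p = 5.62e-06), and the difference in Fr.B/C was -0.10 ± 0.14 (adjusted p = 0.649). Between fractions, Fr.B/C was lower by -1.90 ± 0.14 in fetal liver (adjusted p = 6.49e-08) and by -3.07 ± 0.14 in bone marrow (adjusted p = 2.57e-10). In the authors' deposited table these differences between fractions are larger, -3.33 in fetal liver and -4.29 in bone marrow. The Fr.B/C signals are low, and the 3rd fetal liver Fr.B/C array was not well above background. Of the ligand genes listed for Cd7, Sectm1a had no probe that passed the filter, and Sectm1b passed the test in none of the 5 comparisons (adjusted p from 0.0549 to 0.918).

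T and NK cell markers are given beside Cd7 because both cell types carry it. Of 9 NK cell genes measured of 10 listed, 7 were lower and none higher in fetal liver than in bone marrow in Fr.A. Of everything tested, 17.1% was lower and 12.2% higher there. Nkg7, a granule protein gene, differed by -3.14 ± 0.14, Prf1 (perforin) by -1.55 ± 0.11, and Tbx21, a transcription factor of NK cells, by -1.10 ± 0.10 (log2 difference, SE). The summed level of the list (log2 of the summed signal) ran from 10.97 to 11.14 in fetal liver Fr.A and from 13.001 to 13.57 in bone marrow Fr.A, and on none of the fetal liver Fr.A arrays were Ncr1 and Eomes well above background. Between fractions, 3 of the 9 were lower in Fr.B/C in fetal liver and 8 of the 9 in bone marrow, none higher. Of everything tested, 12.7% was lower in fetal liver and 18.7% in bone marrow. Ncr1 met the brightness filter only through bone marrow Fr.A and Eomes only through bone marrow. The calls of both between tissues, and that of Ncr1 between fractions, thus had little room to go the other way. Of 10 T lineage genes, 4 were lower in fetal liver than in bone marrow in Fr.A and none higher, among them Thy1 (-1.89 ± 0.16, and -0.61 on a second probe), with summed levels from 11.63 to 11.93 in fetal liver Fr.A and from 12.81 to 12.98 in bone marrow Fr.A. The part of these cells in the Cd7 values was not tested.

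Bst2 showed the smallest step between fractions among the genes measured above background in all groups, with close values in both tissues (they differed by -0.03 ± 0.17 SE). Its ratios in fetal liver were -2.58, -2.33, -2.40 and -2.34 in Fr.B/C, against -1.55, -1.24, -1.44 and -1.34 in Fr.A. In bone marrow they were -1.59, -1.77, -1.55 and -1.74 in Fr.B/C, against -0.33, -0.68, -0.71 and -0.996 in Fr.A. Fetal liver lay below bone marrow without overlap in both fractions. Fetal liver was lower by -0.75 ± 0.12 in Fr.B/C (adjusted p = 0.000271) and by -0.72 ± 0.12 in Fr.A (adjusted p = 0.000356), and on the Cy3 arrays alone these were -0.580 and -0.454 with adjusted p of 0.0624 and 0.112. Fr.B/C was lower than Fr.A by -1.02 ± 0.12 in fetal liver (adjusted p = 1.34e-05) and by -0.99 ± 0.12 in bone marrow (adjusted p = 1.33e-05).

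Bst2 is interferon-inducible, and its promoter above holds both overlapping response elements, so a list of 20 other interferon-response genes, 17 of them measured, was set beside it. In fetal liver against bone marrow, 16 of the 17 were lower in Fr.B/C and 15 in Fr.A, with none higher. Of everything tested, 14.7% was lower in Fr.B/C and 17.1% in Fr.A. Oas1a, an enzyme that senses double-stranded RNA, differed by -2.76 ± 0.09 in Fr.B/C and by -1.77 ± 0.09 in Fr.A, and Ifi44 by at least 8.01-fold in Fr.B/C (not well above background in fetal liver) and by -3.51 ± 0.15 in Fr.A. The median of the list was -1.40 in Fr.B/C and -1.004 in Fr.A, beside 0.0135 and -0.0147 over all genes tested. Between fractions, where Bst2 was lower in both tissues, 6 of the 17 were lower in Fr.B/C and none higher in fetal liver, and 5 were lower (3 without the 1st bone marrow Fr.B/C array) and 3 higher in bone marrow. Of everything tested, 12.7% was lower in fetal liver and 18.7% in bone marrow. Irf7, the interferon regulatory factor that plasmacytoid dendritic cells use to induce type I interferon, was lower in fetal liver by -1.37 ± 0.16 in Fr.B/C and -1.40 ± 0.16 in Fr.A. The part of interferon in the Bst2 values was not tested.

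Runx2 reached the same range in Fr.A of both tissues and differed between tissues in Fr.B/C. In fetal liver its ratios were -2.04, -2.16, -1.43 and -1.38 in Fr.B/C, against 3.43, 2.78, 3.77 and 3.70 in Fr.A. In bone marrow they were -0.04, 0.06, 0.40 and 0.68 in Fr.B/C, against 3.27, 3.42, 2.98 and 3.17 in Fr.A. The Fr.A arrays of both tissues overlapped, and every fetal liver Fr.B/C array lay below every bone marrow one. In Fr.B/C, fetal liver was lower than bone marrow by -2.03 ± 0.23 (adjusted p = 9.66e-06), and in Fr.A the difference was 0.21 ± 0.23 (adjusted p = 0.562). The fetal liver Fr.B/C signals are low, and in the authors' deposited table the difference in Fr.B/C is -3.25. Fr.B/C was lower than Fr.A by -5.17 ± 0.23 in fetal liver (adjusted p = 3.15e-10), the largest step of the 6 genes there, and by -2.94 ± 0.23 in bone marrow (adjusted p = 1.16e-07). In the authors' deposited table these differences are -6.54 in fetal liver and -3.17 in bone marrow.

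The array holds 4 probes for Runx2, all on chromosome 17. A second probe, 138 bases from the one used (positions as the scanner files give them, with no build named), was lower in fetal liver than in bone marrow by -1.61 ± 0.24 in Fr.B/C (adjusted p = 0.000159), and differed by 0.38 ± 0.24 in Fr.A (adjusted p = 0.289). Between fractions it was lower in Fr.B/C by -4.40 ± 0.24 in fetal liver and by -2.41 ± 0.24 in bone marrow. Both probes thus gave the same calls in these comparisons. The second probe was well above background on only 1 of the 4 fetal liver Fr.B/C arrays, so the sizes of its differences involving that group are uncertain. The other two, 3.91 and 209.7 kb further towards the 5′ side of the gene, did not pass the brightness filter, with group means between -0.07 and 0.21. Whether transcripts of different length were present was not tested. Among the relatives and partners of Runx2, Runx1 was higher in Fr.B/C than in Fr.A in fetal liver (0.83 ± 0.14) and in bone marrow (0.97 ± 0.14), the opposite direction to Runx2. Runx1 was also higher in fetal liver than in bone marrow in both fractions (0.52 ± 0.14 in Fr.B/C and 0.65 ± 0.14 in Fr.A). Runx3 passed only in fetal liver against bone marrow in Fr.B/C (0.28 ± 0.08, adjusted p = 0.0182), and Cbfb, which encodes the shared partner of the Runt factors, passed in none of the 5 comparisons (adjusted p from 0.124 to 0.982).

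**Figure D2:**
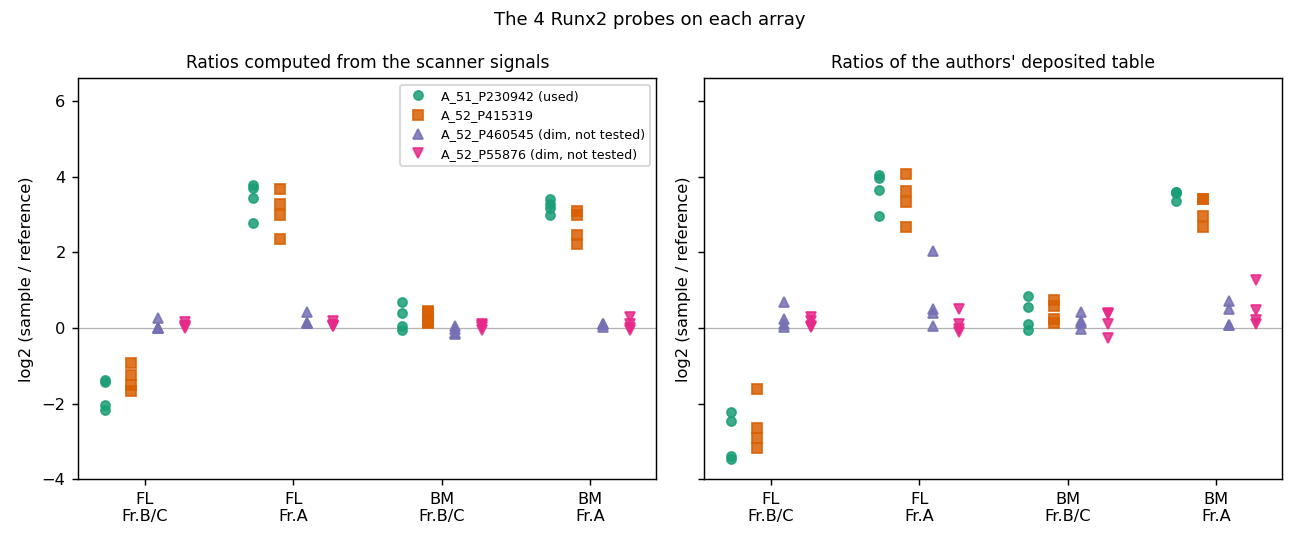
Log2 ratio of sample over reference of the 4 Runx2 probes on each array, computed from the scanner signals (left) and in the authors' deposited table (right), by group. The 2 probes that passed the brightness filter fall together in Fr.B/C, further in fetal liver than in bone marrow. One of them was well above background on only 1 of 4 fetal liver Fr.B/C arrays. The 2 dim probes stay between -0.16 and 0.43 in the computed ratios.

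Cox6a2 was the only one of the 6 genes that passed the main test as higher in fetal liver than in bone marrow in Fr.B/C. In fetal liver its ratios were -0.33, -0.37, -0.01 and 0.02 in Fr.B/C, against 2.23, 2.49, 2.50 and 2.40 in Fr.A. In bone marrow they were -3.19, -3.50, -2.39 and -2.42 in Fr.B/C, against 1.93, 1.65, 2.33 and 2.09 in Fr.A. The Fr.B/C arrays of fetal liver were all above those of bone marrow, and the Fr.A arrays of both tissues overlapped. In Fr.B/C the gene was 6.51-fold higher in fetal liver (2.70 ± 0.22, adjusted p = 1.81e-07). In Fr.A the difference was 0.40 ± 0.22 (adjusted p = 0.190), and a fit that blocked on the replicate number passed it narrowly (adjusted p = 0.0451). Fr.B/C was lower than Fr.A by -2.58 ± 0.22 in fetal liver (adjusted p = 2.90e-07) and by -4.88 ± 0.22 in bone marrow (adjusted p = 2.11e-10), the largest step of the 6 genes there. Cox6a1, the form of the same subunit made in most tissues, was higher in fetal liver than in bone marrow in Fr.A (0.49, adjusted p = 0.0364) and passed in none of the other 4 comparisons.

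Between fetal liver and bone marrow, then, the 6 genes had no common direction. In Fr.B/C, Cox6a2 was higher in fetal liver, Runx2 and Bst2 were lower, and 3 did not pass. These 3 of 6 stand beside 28.6% of everything tested, of which 13.9% was higher and 14.7% lower. In Fr.A, Siglech and Ccr9 were higher, Cd7 and Bst2 were lower, and 2 did not pass. These 4 of 6 stand beside 29.3%, of which 12.2% was higher and 17.1% lower. Groups lay apart for these same genes and no others, which was so for 29.6% of all genes in Fr.B/C and 26.1% in Fr.A. Only Bst2 was called in both fractions. The median difference of the 6 was -0.03 in Fr.B/C and 0.31 in Fr.A. All fetal liver arrays were scanned on other dates than the bone marrow arrays, so scan date and tissue cannot be told apart. Erythroid markers also moved with tissue: 7 of 8 were higher in fetal liver than in bone marrow in Fr.B/C and none lower, and 7 were higher and 1 lower in Fr.A. The 1 lower was Hbb-bt (named after its values were seen), whose probes gave values from -1.71 to 0.49 there. The summed level of the erythroid markers (log2) ran from 16.4 to 17.04 in fetal liver Fr.B/C and 14.12 to 14.53 in bone marrow Fr.B/C, and from 16.26 to 17.26 in fetal liver Fr.A and 15.45 to 15.72 in bone marrow Fr.A. Their part in the differences between tissues was not tested.

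**Figure D3:**
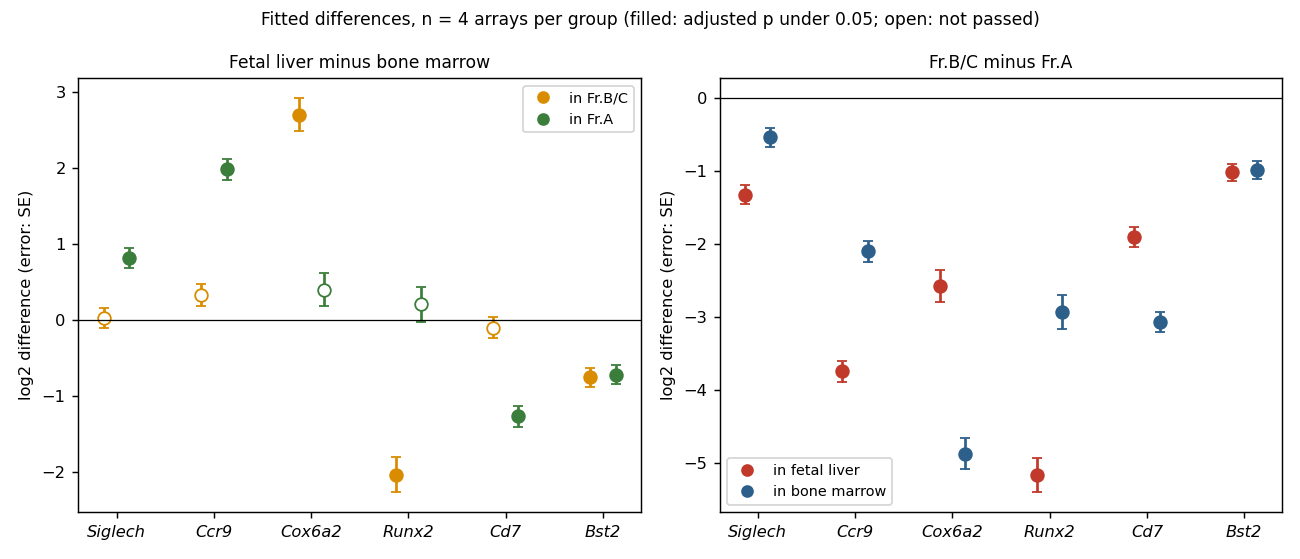
Fitted log2 differences (points) with SE (bars) of the 6 genes, fetal liver minus bone marrow in each fraction (left) and Fr.B/C minus Fr.A in each tissue (right), from 4 arrays per group. All points on the right are filled and below 0, whereas the points on the left lie on both sides of 0.

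The step between fractions differed between tissues for 5 of the 6 genes (the interaction term of the same model), beside 7.34% of everything tested, 4.36% with a positive and 2.98% with a negative value. The fall in Fr.B/C was larger in fetal liver for Siglech (interaction -0.79 ± 0.18, adjusted p = 0.0149), Ccr9 (-1.65 ± 0.20, adjusted p = 0.000135) and Runx2 (-2.24 ± 0.33, adjusted p = 0.000597). It was smaller in fetal liver for Cox6a2 (2.30 ± 0.31, adjusted p = 0.000270) and Cd7 (1.17 ± 0.20, adjusted p = 0.00182). For Bst2 it was -0.03 (adjusted p = 0.944). The Siglech value rests on Fr.B/C arrays not well above background in both tissues and on low Fr.A signals. Fr.B/C signals were also low for Ccr9 and Cd7 in both tissues and for Runx2 in fetal liver. For Cd7, 1 of the fetal liver Fr.B/C arrays was not well above background. None of the 5 calls held on the arrays of 1 dye alone or with arrays averaged in pairs, settings with 8 values in all, and median centring left 3, with Siglech at an adjusted p of 0.0757 and Cd7 at 0.0537. Cd7 was also lost with the scanner's processed signals (0.754, adjusted p = 0.160). In each of those settings the 5 interactions kept their sign.

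The step could also be taken within each scan date that held both fractions, 2 for fetal liver and 3 for bone marrow. Each fetal liver date held 2 arrays of each fraction, 1 in each dye. Each bone marrow date held only 1 Fr.B/C array. It was set against 2 Fr.A arrays, 1 in each dye, on the first of these dates, and against 1 Fr.A array in the same dye on the others. The step was negative for every gene on every such date. For Runx2 it was -5.20 and -5.14 in fetal liver, against -3.29, -2.58 and -2.49 in bone marrow. For Cox6a2 it was -2.71 and -2.44 in fetal liver, against -5.29, -4.72 and -4.51 in bone marrow. Ccr9 stepped by -3.80 and -3.69 in fetal liver, against -2.46, -2.14 and -1.67 in bone marrow. For Siglech, Ccr9 and Runx2 every fetal liver date showed a larger fall than every bone marrow date, and for Cox6a2 and Cd7 a smaller one. Bst2 ran from -1.06 to -0.98 in fetal liver, within its bone marrow range of -1.26 to -0.75.

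The group means of the 6 genes did not share 1 order. Ccr9 and Cox6a2 ran from fetal liver Fr.A to bone marrow Fr.A, fetal liver Fr.B/C and bone marrow Fr.B/C, from highest to lowest. For Ccr9 the last pair of neighbours did not pass the test (adjusted p = 0.101), and for Cox6a2 it was the first pair (adjusted p = 0.190). Siglech also ran from fetal liver Fr.A to bone marrow Fr.A, but its Fr.B/C groups, not well above background, have no order between them. Cd7 and Bst2 ran from bone marrow Fr.A to fetal liver Fr.A, bone marrow Fr.B/C and fetal liver Fr.B/C. The neighbours that did not pass the test were the last pair for Cd7 (adjusted p = 0.649) and the middle pair for Bst2 (adjusted p = 0.103). The Bst2 arrays of that middle pair only just missed overlapping, with the lowest fetal liver Fr.A array at -1.546 and the highest bone marrow Fr.B/C array at -1.550. Runx2 alone began with fetal liver Fr.A and ended with fetal liver Fr.B/C, and the difference between its Fr.A groups did not pass the test (adjusted p = 0.562).

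The genes whose profile over the 16 arrays came nearest to each marker were found by the root mean square difference of log2 ratios after subtracting each gene's mean, as a description with no test. Nearest to Runx2 were Rnase6 (0.653), itself an abundant transcript of mouse plasmacytoid dendritic cells, Nsg2 (0.653) and Depp1 (0.708). Nearest to Ccr9 were the chemokine gene Ccl9 (0.329), the cyclin gene Ccnd1 (0.436) and the tropomyosin gene Tpm2 (0.440). Cox6a2 had the least close neighbours, Hmga2 (0.859), a chromatin protein gene known for its high fetal expression, Tpm2 (0.863) and the tubulin gene Tubb6 (0.868). Nearest to Cd7 were Tnni1 (0.259), Klhl30 (0.273) and Fxyd1 (0.322), to Bst2 Sirt3 (0.139), Tbc1d5 (0.176) and Rcn1 (0.187), and to Siglech Postn (0.122), Rgs7bp (0.157) and Fam171b (0.178). A gene that varies little has smaller differences to all others, and the SD over the arrays was 0.595 for Siglech and 0.659 for Bst2, against 2.24 for Runx2 and 2.19 for Cox6a2. No 2 of the 6 markers were nearer to each other than 0.665 (Siglech and Bst2), and Siglech and Runx2 lay 1.75 apart.

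Of 12 transcription regulators known from plasmacytoid dendritic cell development, all measured, 2 were higher and 4 lower in Fr.B/C than in Fr.A in fetal liver, and 3 were higher and 4 lower in bone marrow. These counts stand beside 22.7% of everything tested in fetal liver and 32.2% in bone marrow, in either direction. Spib, an Ets factor of B cells and plasmacytoid dendritic cells, was higher by 2.24 ± 0.13 in fetal liver and by 3.21 ± 0.12 in bone marrow, the opposite direction to the 6 markers. Id2 was lower by -2.53 ± 0.21 in fetal liver and by -3.40 ± 0.21 in bone marrow, and Irf8, needed for dendritic cells and also used by B cells, by -1.63 ± 0.08 in fetal liver and -0.51 ± 0.08 in bone marrow. Tcf4, named here after its values were seen, passed in none of the 5 comparisons (adjusted p from 0.0801 to 0.775), with -0.36 in fetal liver and -0.22 in bone marrow between fractions. Its 3 probes did not give 1 direction there, with values from -0.65 to 0.16 in fetal liver and from -0.58 to 0.08 in bone marrow. In fetal liver against bone marrow, 1 of the 12 was higher and 5 lower in Fr.B/C, and 3 were higher and 5 lower in Fr.A, with Irf8 at -1.81 ± 0.08 in Fr.B/C and Cbfa2t3 at -1.22 ± 0.13 in Fr.A. Of everything tested, 28.6% passed in Fr.B/C and 29.3% in Fr.A.

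Of 10 genes of nucleic acid sensing, 1 was higher and 3 lower in Fr.B/C than in Fr.A in fetal liver, and 3 were higher and 3 lower in bone marrow. These counts stand beside 22.7% of everything tested in fetal liver and 32.2% in bone marrow, in either direction. Tlr7, the endosomal receptor for single-stranded RNA, was at least 2.78-fold lower in Fr.B/C in fetal liver, where it was not well above background, and lower by -2.13 ± 0.12 in bone marrow. Pacsin1, an adaptor abundant in plasmacytoid dendritic cells, was lower in Fr.B/C in fetal liver (-1.08 ± 0.16), and in bone marrow it differed by 0.21 (adjusted p = 0.358). In Fr.A it was higher in fetal liver than in bone marrow by 1.62 ± 0.16 (adjusted p = 1.63e-06), as Siglech and Ccr9 were, and the lowest of its 3 probes gave 0.41. In fetal liver against bone marrow, none of the 10 was higher and 3 were lower in Fr.B/C, among them Irf5 (-1.29 ± 0.12), and 1 was higher and 4 lower in Fr.A. Of everything tested, 28.6% passed in Fr.B/C and 29.3% in Fr.A.

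Of 19 other genes used to mark plasmacytoid dendritic cells, 15 were measured, and Klra17, Ly6c2, Cd8a and Mpeg1 had no probe that passed the filter. In Fr.B/C against Fr.A, 4 were higher and 9 lower in fetal liver, and 2 were higher and 10 lower in bone marrow. Of everything tested, 22.7% passed in either direction in fetal liver and 32.2% in bone marrow. Lag3 met the filter only through bone marrow Fr.A, so its lower call in bone marrow had little room to go the other way. Rnase6, of the ribonuclease A family, differed by -3.57 in fetal liver and by -2.54 in bone marrow (log2, SE 0.18 each). Ly6d, also a marker of B-cell commitment, differed by -3.36 in fetal liver and by -3.49 in bone marrow (SE 0.20 each). Flt3, a cytokine receptor of dendritic cell and lymphoid progenitors, differed by -3.23 in fetal liver and by -2.96 in bone marrow (SE 0.21 each). Atp1b1, a subunit of the sodium pump, was higher by 2.01 in fetal liver and by 2.90 in bone marrow. The median difference of the 15 was -0.81 in fetal liver and -0.67 in bone marrow, closer to 0 than the medians of the 6 markers. The 4 higher in fetal liver were 2 without the 3rd or 4th fetal liver Fr.A array or the 4th fetal liver Fr.B/C array.

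**Figure D4:**
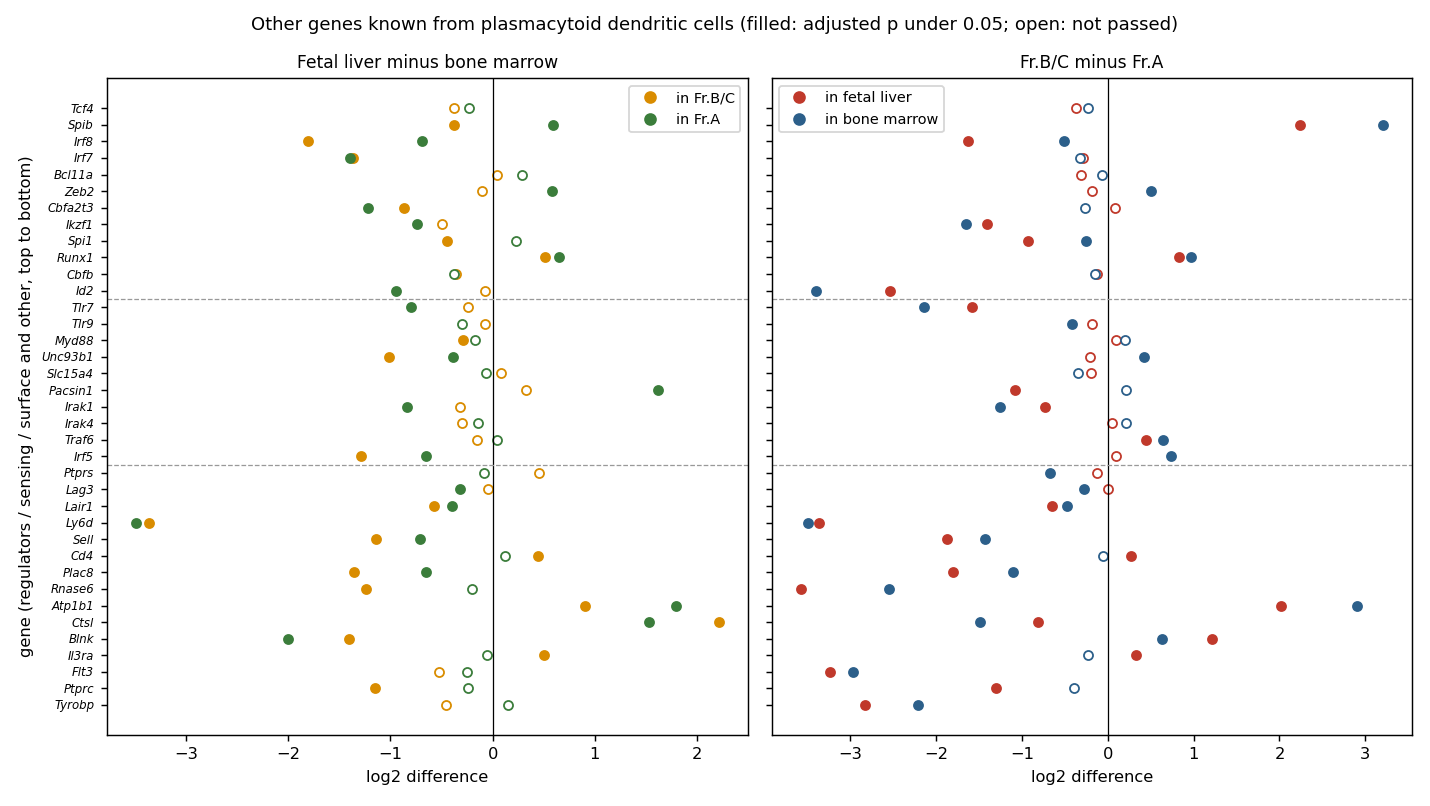
Fitted log2 differences of the measured genes of 3 further lists known from plasmacytoid dendritic cells (regulators, nucleic acid sensing, surface and other, from top to bottom), fetal liver minus bone marrow (left) and Fr.B/C minus Fr.A (right). Filled points passed the test, and the filled points on the right lie on both sides of 0, with Spib and Atp1b1 highest.

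Some markers of other cell types moved with the fractions too, whereas none of the 8 erythroid markers passed between fractions in either tissue. Of everything tested, 12.7% was lower in Fr.B/C in fetal liver and 18.7% in bone marrow. Of 8 conventional dendritic cell genes measured of 10 listed, 3 were lower and none higher in Fr.B/C in either tissue (5 lower in bone marrow without the 2nd bone marrow Fr.A array, and with the sort or the scan date as a block). The 3 were Itgax, which encodes CD11c and is found at a lower level on plasmacytoid dendritic cells, Clec10a and Ccr7. Itgax was lower by -3.04 ± 0.10 in fetal liver and at least 5.32-fold lower in bone marrow, where Fr.B/C was not well above background. Clec10a was at least 1.40-fold lower in fetal liver and at least 3.63-fold lower in bone marrow. It was not well above background in Fr.B/C of either tissue and met the filter only through Fr.A. Its calls thus had little room to go the other way. The other 5 measured genes, Zbtb46, Batf3, Xcr1, Sirpa and Itgae, passed in neither tissue (adjusted p from 0.0611, for Batf3 in bone marrow, to 0.916), and Clec9a and Cd209a had no probe that passed the filter (these genes are named after their values were seen). Summed levels (log2) of the list ran from 9.78 to 10.02 in Fr.B/C and 10.35 to 10.96 in Fr.A of fetal liver, and from 9.85 to 10.27 in Fr.B/C and 10.76 to 11.07 in Fr.A of bone marrow. Of 10 granulocyte and monocyte genes, 6 were lower in fetal liver and 3 in bone marrow with none higher, among them Csf1r (-2.62 ± 0.13 in fetal liver and -1.04 ± 0.13 in bone marrow), whose dimmer probes gave values as small as -0.10 in fetal liver and -0.16 in bone marrow. Of the 10 T lineage genes, 4 were lower in Fr.B/C in either tissue, with none higher in fetal liver and 2 in bone marrow. Cd28, among those lower, also met the filter only through Fr.A. The part of these cell types in the values of the 6 markers was not tested.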

How the data were processed

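Total RNA of 16 samples (100 ng each, amplified) was hybridised to 2-colour Agilent arrays, with the sample in Cy5 on arrays 1 and 3 and in Cy3 on arrays 2 and 4, per the labels. The scanner output, from Feature Extraction 8.5.1.1, holds mean, background and processed signals as intensity, per the file headers. A second deposited file is the authors' table of log2 ratios of sample over reference, with array medians from -0.00731 to 0.0202 and r = 0.930 to 0.951 with the ratios computed here. No source used here says how it was made, and the submitters' processing notes name limma without a version.

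The background was corrected with normexp (offset 50) and each array normalized by loess in limma 3.58.1 (R 4.3.3). Control spots and outlier spots were left out, and saturated spots kept. A probe was kept if well above background in the sample channel on at least 3 of 4 arrays of any group and usable on at least 12 arrays (27522 of 41174). Probes were named by accession (22207), RIKEN clone (3051), or symbol (482) or synonym (388) in the description, and 32 matched several genes. The RefSeq tables of GRCm38.p6 gave names and promoters. The brightest kept probe stood for a gene. A limma model of 4 group means and dye (11 residual degrees of freedom) with empirical Bayes was fitted to all arrays, with Benjamini-Hochberg adjustment over 22276 genes and transcripts and a threshold of 0.05. Where no array of a group had a probe well above background, the fold is a lower bound, with the dim group set on each array at the lowest signal well above background or at the probe's own signal if that was higher. These bounds and the summed levels of lists use sample-channel signals, not ratios, after quantile normalization of the average intensities between arrays. The brightest probes weigh most in a summed level. The number of arrays limits the precision.

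The members and gene lists were chosen with earlier results of these data known. Named genes are the 6 members, all partners, up to 3 genes per list and comparison with the smallest adjusted p, and the 3 genes nearest each member, of which the text gives a part. Same-numbered Fr.B/C and Fr.A samples come from 1 sort of a tissue, per the labels, and their deviations from group means correlated at 0.298 to 0.565. Fetal liver and bone marrow samples of 1 number come from separate sorts but share the dye. Their deviations correlated at 0.367 to 0.515 in Fr.B/C and at -0.154 to 0.275 in Fr.A, and the number was not used to pair tissues. The alternatives covered background, normalization, the deposited ratios, the brightness filter, dye, blocks, scan date, empirical Bayes, probe and each array left out. The test was checked on simulated data. The values of 1 gene of the early B-lineage list are not reported here.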

Additional observations from a re-analysis of the deposited data

Results flagged for a closer look

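In fetal liver Fr.A, the Ccr9 ratio of array 3 (1.74) stood apart from the other 3 arrays (1.47, 1.47 and 1.51), with a gap that was 0.848 of the group's range. It was the only such value in 24 tests of 6 genes in 4 groups, and chance gives about 1 in 20. Leaving out that array, Ccr9 stayed higher in fetal liver than in bone marrow in Fr.A.

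The step between fractions differed between tissues, by the interaction term, for Siglech (-0.79), Ccr9 (-1.65), Cox6a2 (2.30), Runx2 (-2.24) and Cd7 (1.17), on the log2 scale as fetal liver minus bone marrow. A negative value means a larger fall from Fr.A to Fr.B/C in fetal liver, and a positive one a smaller fall.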

How the results depend on the processing

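The 6 genes in 5 comparisons were tested again under 18 other settings and with each of 16 arrays left out, 983 tests in all. Of these, 943 kept both their direction and their side of the threshold, 24 lost the threshold, 4 gained it and 12 changed sign. The cause was not tested. The count of genes passing in both comparisons of fractions was 6 in every setting except those that lost Siglech in bone marrow. The count of 5 interactions was 3 with median centring and 0 with arrays averaged in pairs, with Cy5 arrays alone and with Cy3 arrays alone, settings that hold 8 values. Over all genes the interaction passed for 1635 genes, against 430 with median centring, 44 with averaged pairs and 11 to 33 with 1 dye. For Fr.A between tissues, the count of 4 was 2 with Cy3 arrays alone. Leaving out 1 array ended no call of the 6 genes, though counts of 1 or 2 genes in the other lists moved. Changes of sign were all in differences that had not passed. They were, between tissues, Siglech in Fr.B/C (-0.327 with processed signals, -0.00221 without background subtraction, -0.116 with deposited ratios and -0.0465 with Cy3 alone), Runx2 in Fr.A (-0.0536 with Cy3 alone) and Cd7 in Fr.B/C (from -0.204 to 0.00281 with 1 array left out, the highest without the 3rd bone marrow Fr.B/C array). The Bst2 interaction became 0.0776 with scaling between arrays and 0.0590 with Cy5 alone. It became 0.0754, 0.000749, 0.0283 and 0.0340 without the 4th bone marrow Fr.A, 3rd bone marrow Fr.B/C, 2nd fetal liver Fr.A and 1st fetal liver Fr.B/C array, from a lowest value of -0.155 with 1 array left out.

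With the replicate number as a fixed block, the Cox6a2 difference between tissues in Fr.A passed (0.40, adjusted p = 0.0451), which makes that count 5. Neither this block nor the sort as a random block (consensus correlation 0.338) changed another call of the 6 genes. Over all genes, the interaction passed for 2631 genes with the number and 3187 with the sort as a block. Scan date as a block, chosen in its fixed form after seeing the data, also changed no call in the comparisons of fractions. Signal over background limits Siglech in Fr.B/C to a bound.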
